A study of Mus musculus and Homo sapiens with 10 samples.

Results

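The loci of 4 mouse genes, Cdkn1a, E2f1, Per2 and Serpine2, were examined for histone modifications that changed after knockdown of Cbx8 in MMTV-Myc cells, cells whose name refers to the Myc transgene of mammary tumour mice. They were chosen by the authors' calls themselves, as the places where a region called lower in H3K27ac overlapped a region called lower in H3K4me3. Within windows of 60000 bp on chromosome 17 (mm9, 29200000 to 29260000, Cdkn1a), 40000 bp on chromosome 2 (154370000 to 154410000, E2f1), 70000 bp on chromosome 1 (93300000 to 93370000, Per2) and 90000 bp on chromosome 1 (79780000 to 79870000, Serpine2), they held 8 of the 966 changed regions in the 6 mouse lists.

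Knockdown cells carried a pLKO.1 lentiviral short hairpin RNA against Cbx8 (shCbx8) and control cells a scrambled hairpin (shScr). Both were selected with 2 µg/ml puromycin, started 2 days after infection and kept up for at least 4 days and through passaging. Chromatin was cut to mononucleosomes with micrococcal nuclease, precipitated with antibodies to H3K4me3, H3K27ac or H3K27me3, and sequenced as single-end reads of 100 bp. There were 6 such mouse libraries, 3 from shCbx8 and 3 from shScr cells, with 1 library per hairpin and antibody, and a single input library from shScr cells. The labels do not say which Cbx8 hairpin was used, and they describe the scrambled control as wild type. The lists hold positions only, with no fold, p-value, score or read count per region, which leaves both the depth and how far each region changed unknown. No difference has a replicate check. The depletion of Cbx8 itself cannot be read from these files.

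H3K4me3 is laid down around the start sites of active genes by complexes that contain Wdr5, the protein paired with Cbx8 in the study's title. H3K27ac marks active start sites and enhancers. H3K27me3 is the Polycomb mark, and within the Polycomb family Cbx8 acts as a chromodomain reader. Cdkn1a encodes p21, an inhibitor of cyclin-dependent kinases that p53 induces to hold cells before DNA replication. E2f1 encodes a transcription factor that switches on genes for entry into S phase and is restrained by the retinoblastoma protein. Per2 encodes a repressor of the circadian clock that shuts down Clock and Bmal1. Serpine2 encodes protease nexin-1, a secreted serpin that inhibits thrombin and plasminogen activators.

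The sequences before the annotated starts are shown because both marks usually flank such starts. They come from RefSeq, assembly GRCm38.p6, which is not the build of the regions, so their positions must not be set against the mm9 positions. Of the 4 genes, 3 had an entry, with 4 windows in all, and Per2 had none. Each run gives the 250 bases before a start, 5′ to 3′ on the strand of the gene. Capitals mark letters that match one of 10 motifs named with their results below. Cdkn1a has a window before an upstream start, chr17:29090729-29090978 (plus strand), and one before a second start 2790 bp further on, chr17:29093519-29093768 (plus strand). The E2f1 window, chr2:154569427-154569676 (minus strand), precedes a start that lies inside the annotated span of the gene. Its printed bases are themselves within that span. The Serpine2 window, chr1:79858666-79858915 (minus strand), precedes the outermost start.
Cdkn1a, start 1: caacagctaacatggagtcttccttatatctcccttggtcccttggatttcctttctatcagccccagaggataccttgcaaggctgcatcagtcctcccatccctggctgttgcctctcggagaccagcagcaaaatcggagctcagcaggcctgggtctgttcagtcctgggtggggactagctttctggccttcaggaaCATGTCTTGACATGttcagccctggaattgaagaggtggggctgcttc
Cdkn1a, start 2: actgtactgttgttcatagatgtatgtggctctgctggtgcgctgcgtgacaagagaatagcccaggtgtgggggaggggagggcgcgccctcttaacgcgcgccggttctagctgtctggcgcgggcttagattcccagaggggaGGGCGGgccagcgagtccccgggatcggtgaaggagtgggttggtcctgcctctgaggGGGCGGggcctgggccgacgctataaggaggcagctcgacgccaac
E2f1: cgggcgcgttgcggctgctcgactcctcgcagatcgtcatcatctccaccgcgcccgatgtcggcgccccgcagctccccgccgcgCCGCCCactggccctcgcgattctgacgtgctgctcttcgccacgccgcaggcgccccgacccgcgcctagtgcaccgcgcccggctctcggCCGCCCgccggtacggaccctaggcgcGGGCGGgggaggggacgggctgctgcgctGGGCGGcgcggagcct
Serpine2: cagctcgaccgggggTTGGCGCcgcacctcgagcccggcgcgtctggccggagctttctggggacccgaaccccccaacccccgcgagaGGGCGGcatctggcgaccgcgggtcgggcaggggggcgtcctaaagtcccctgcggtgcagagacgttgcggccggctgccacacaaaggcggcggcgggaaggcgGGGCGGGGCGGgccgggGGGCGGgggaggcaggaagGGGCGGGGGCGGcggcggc

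In each of the 4 windows of the rule the lists held 1 lower H3K27ac region and 1 lower H3K4me3 region. Higher regions of either mark numbered 0 there, as did H3K27me3 regions in both directions, a mark for which 96.9% of the 65 changed regions were lower. These 4 pairs were 2.41% of the 166 lower H3K27ac regions and 0.571% of the 701 lower H3K4me3 regions. The rule fixed these counts, so nothing is read from them. The rule likewise fixed that each window held a lower H3K27ac and a lower H3K4me3 region. It did not fix the absence of other regions. Regions of those other lists were few, however, so their absence from a window says little. In the whole genome there were 18 higher H3K4me3, 16 higher H3K27ac and 65 changed H3K27me3 regions. Among changed regions at large, 91.2% of 182 for H3K27ac and 97.5% of 719 for H3K4me3 were lower. Per the lists' names, the limits were 1.8 for fold and 1e-08 for q. A mark missing from a window is therefore a mark that did not pass these thresholds, not one shown to be unchanged.

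At Cdkn1a, the p21 gene, the H3K27ac region spanned 29230801 to 29234500 and the H3K4me3 region 29230251 to 29233950 on chromosome 17. Both were 3.7 kb long, and the H3K27ac region was shifted by 550 bp toward higher coordinates at each end. The 3150 bp they shared made up 85.1% of either region. This was the only pair of the 4 with equal lengths. The H3K27ac region was 1.85 times as long as its list's median of 2000 bp, and the H3K4me3 region 2 times as long as its list's median of 1850 bp.

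At E2f1, the S-phase transcription factor, the H3K27ac region spanned 154393301 to 154399600 and the H3K4me3 region 154393601 to 154397150 on chromosome 2. The H3K27ac region, at 6.3 kb, had only 2 longer than itself among the 166 of its list, and it contained the whole H3K4me3 region of 3.55 kb. It began 300 bp before the H3K4me3 region and ended 2450 bp after it, so 2750 bp of it lay outside the lower H3K4me3 region. Whether H3K4me3 was present there cannot be read from lists of changed regions. The excess thus lay mostly on the side of higher coordinates. The promoter table puts E2f1 on the minus strand, on which higher coordinates run against the direction of transcription.

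At Per2, the clock repressor, the H3K27ac region spanned 93354351 to 93356900 and the H3K4me3 region 93354801 to 93356700 on chromosome 1. The H3K27ac region was 2.55 kb long and contained the whole H3K4me3 region of 1.9 kb, with 450 bp to spare on the lower side and 200 bp on the higher side. Their midpoints were the closest of the 4 pairs, the one of H3K27ac lying at -125 bp from that of H3K4me3. Both regions were the shortest of their mark among the 4 loci, and near the middle of their lists, with 57 of 166 H3K27ac regions and 316 of 701 H3K4me3 regions longer.

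At Serpine2, the protease inhibitor gene, the H3K27ac region spanned 79854951 to 79858500 and the H3K4me3 region 79853551 to 79856000 on chromosome 1. They shared 1050 bp, the least of the 4 pairs, which was 29.6% of the 3.55 kb H3K27ac region and 42.9% of the 2.45 kb H3K4me3 region. The H3K27ac region was displaced toward higher coordinates, by 1400 bp at its start and 2500 bp at its end, with midpoints 1950 bp apart. Serpine2 is on the minus strand in the promoter table, so this displacement, like the excess at E2f1, ran against the direction of transcription. At Cdkn1a, which is on the plus strand, the shift of 550 bp ran along it.

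**Figure D1:**
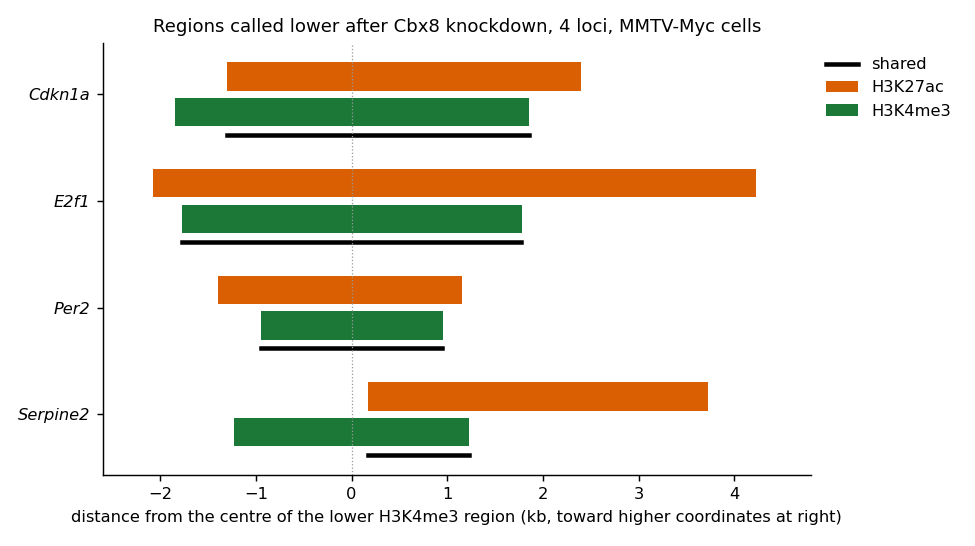
Regions called lower in H3K27ac (orange) and H3K4me3 (green) at the 4 loci, drawn to scale as distance in kb from the centre of the H3K4me3 region, with the shared stretch as a black line. H3K27ac contains the H3K4me3 region at E2f1 and Per2, overlaps it by 3150 bp with a shift at Cdkn1a, and meets its edge by 1050 bp at Serpine2.

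Across the 4 loci the H3K27ac regions covered 16100 bp and the H3K4me3 regions 11600 bp, and 9650 bp were common to both. This was 59.9% of the H3K27ac and 83.2% of the H3K4me3 length. The ratio of H3K27ac to H3K4me3 length was 1 at Cdkn1a, 1.34 at Per2, 1.45 at Serpine2 and 1.77 at E2f1, against a ratio of 1.08 between the median lengths of the lists. In all 4 pairs the H3K27ac region ended at a higher coordinate than the H3K4me3 region, by 200 bp at Per2 and 550 bp at Cdkn1a, and by 2450 bp at E2f1 and 2500 bp at Serpine2. With 4 pairs and no fold per region, these are descriptions of the calls.

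All 8 regions were longer than the median of their list, though Per2 lay near the middle for H3K4me3. In the H3K27ac list the length percentiles were 65.1 for Per2, 81.6 for Serpine2, 85.2 for Cdkn1a and 98.5 for E2f1. In the H3K4me3 list they were 53.2 for Per2, 73.8 for Serpine2, 93.2 for E2f1 and 94.2 for Cdkn1a. Per2 and Serpine2 were thus ranked below Cdkn1a and E2f1 for both marks. A longer region meets another more easily, so length is tied to the rule. All 4 overlaps fell among the 83 H3K27ac regions of at least the median length and 0 among the 83 shorter ones. For H3K4me3, 4 fell among the 358 regions of at least the median length and 0 among the 343 shorter ones.

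**Figure D2:**
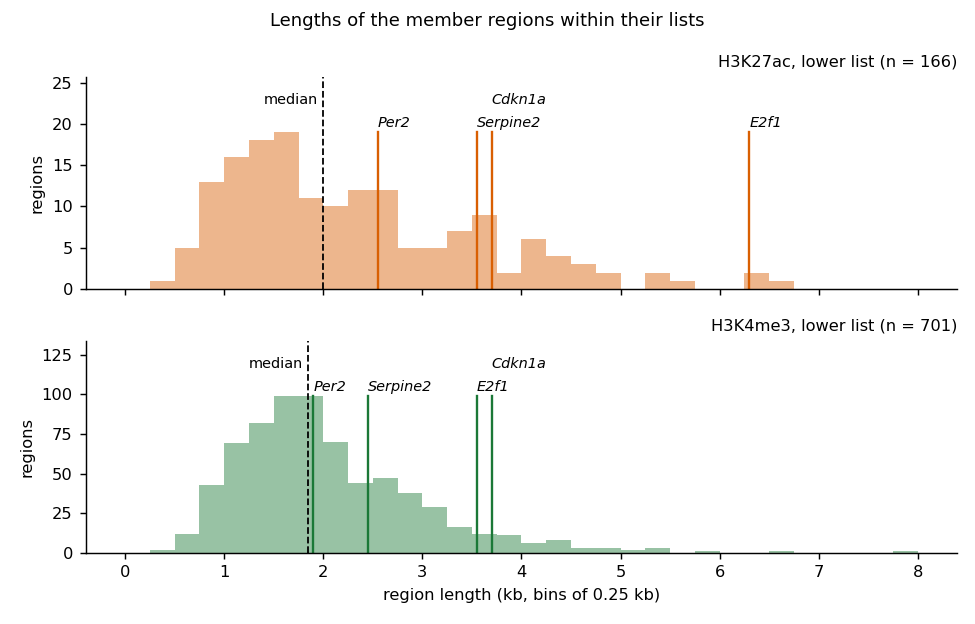
Histograms of region length in kb for the lower H3K27ac list (166 regions, above) and the lower H3K4me3 list (701 regions, below), with a line at each of the 4 loci and a dashed line at the list's median. All 8 regions lie above the median of their list, E2f1 farthest for H3K27ac at 6.3 kb and Per2 closest for H3K4me3 at 1.9 kb.

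Near its edge, the overlap rule separated pairs of the lists by small distances. The pair with the least overlap was that of Serpine2, at 1050 bp. Those of Per2, Cdkn1a and E2f1 shared 1900, 3150 and 3550 bp. Just outside the rule, a lower H3K27ac region on chromosome 2 (28372051 to 28374350) lay 1650 bp from a lower H3K4me3 region (28368351 to 28370400). The next were pairs on chromosome 6 (29416651 to 29419350 and 29423501 to 29424650), with a gap of 4150 bp, and on chromosome 7 (19885651 to 19887750 and 19892001 to 19896250), with a gap of 4250 bp. In each of these pairs the H3K27ac region is given first. Most lower H3K27ac regions were much farther away, with a median gap of 712 kb (interquartile range 192 to 2347 kb) over the 162 without an overlap. Of these, 17 had a gap of up to 50000 bp.

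**Figure D3:**
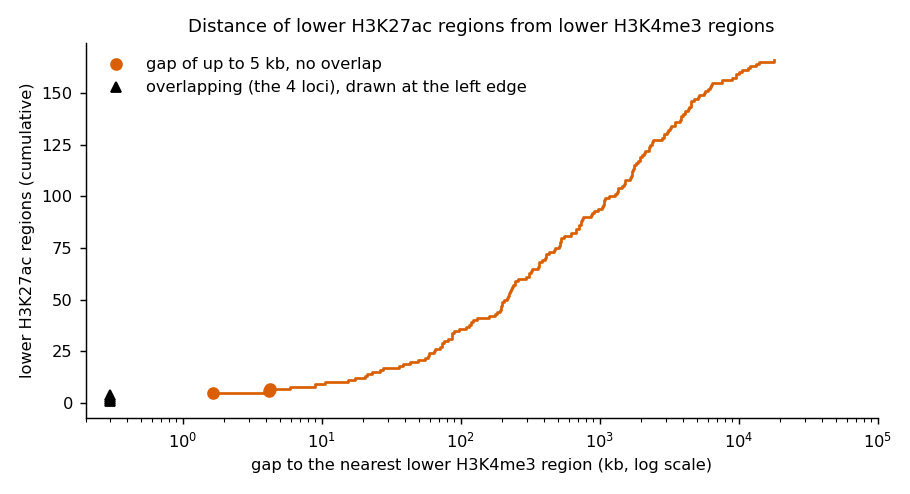
Cumulative number of the 166 lower H3K27ac regions by their gap in kb (log scale) to the nearest lower H3K4me3 region. Triangles are the 4 overlapping regions, which have no gap and are drawn at the left edge, and dots are the 3 regions with a gap of up to 5 kb. Most of the curve lies above 100 kb.

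The 4 loci differed in what else had changed nearby. Around Per2, another lower H3K4me3 region (93390851 to 93392600, 1750 bp long) lay 33.95 kb away and another lower H3K27ac region (93435701 to 93438250, 2550 bp long) 78.8 kb away, both on the side of higher coordinates. One more lower H3K4me3 region lay 911 kb away on the same side. Per2 was the only one of the 4 loci with another changed region within 100000 bp. Its gap of 33.95 kb was shorter than the lower quartile in either list. The lower quartile of the gap to the nearest region of any mouse list was 84.1 kb for lower H3K4me3 regions. For lower H3K27ac regions it was 111 kb. These list gaps leave out only the region itself, so an overlapping region of the other mark counts as the nearest. The gap at Per2 leaves out both regions of the pair.

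Around E2f1 there were 2 further lower H3K4me3 regions within 1000000 bp, both at lower coordinates, at gaps of 158.9 kb (154232701 to 154234400) and 917 kb (153474501 to 153476400). Around Cdkn1a there were 3, with lower H3K4me3 regions at gaps of 452 kb (29686301 to 29687950) and 884 kb (28344251 to 28345950) and a lower H3K27ac region at 836 kb (30070851 to 30071800). Serpine2 stood alone, with 0 other changed regions within 1000000 bp and the nearest one, a lower H3K4me3 region, 2.43 Mb away (82287001 to 82288750). In the lists at large, the median number of others within 1000000 bp was 1 for lower H3K27ac regions and 2 for lower H3K4me3 regions, and 39.2% and 25.7% of them had none. The counts of 0 to 3 at the 4 loci lie within the ranges of the lists, 0 to 11 for H3K27ac and 0 to 13 for H3K4me3. The measures differ, however. Counts at the loci leave out both regions of a pair, while those of the lists leave out only the region itself. By the list measure each region of a pair has its partner as an other, so those of Serpine2 are not among the regions with none.

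**Figure D4:**
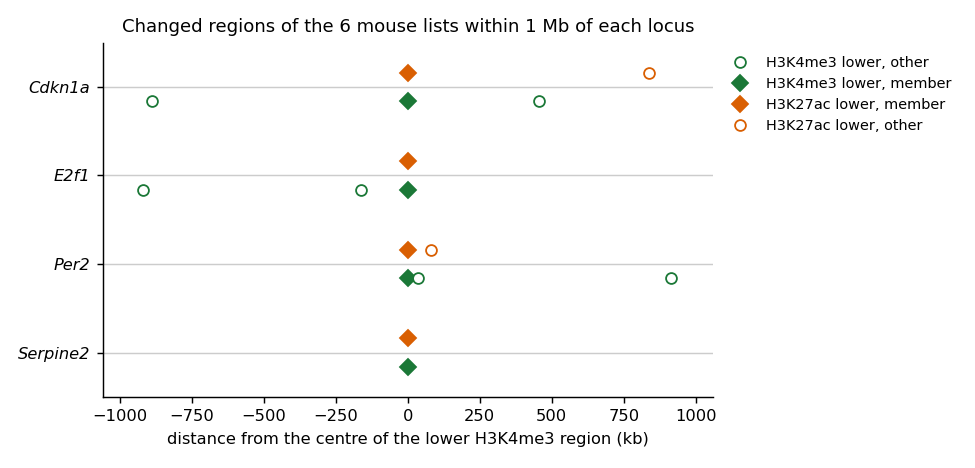
Changed regions of the 6 mouse lists within 1 Mb of each locus, as distance in kb from the centre of the H3K4me3 region. Filled diamonds are the regions at the 4 loci and open circles all others, H3K27ac above each line and H3K4me3 below it. Per2 has 2 others within 100 kb, and Serpine2 has none in the window.

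Changed regions of the Polycomb mark H3K27me3 lay far from all 4 loci. Measured from the H3K27ac region, the nearest lower H3K27me3 region was 8.15 Mb away at E2f1, 36.4 Mb at Cdkn1a, 53.9 Mb at Serpine2 and 67.4 Mb at Per2. A higher H3K27me3 region was on the same chromosome for E2f1 alone, 12.2 Mb away. With 63 lower and 2 higher regions in the whole genome, gaps of this order leave little to compare.

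Regions higher in both marks formed 1 pair in the lists. It lay on chromosome 19, where the H3K27ac region (34680851 to 34684100, 3250 bp) and the H3K4me3 region (34681601 to 34684350, 2750 bp) shared 2500 bp, or 76.9% of the H3K27ac and 90.9% of the H3K4me3 region. There the H3K27ac region was the one that ended at the lower coordinate, by 250 bp, unlike at the 4 lower loci.

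Motif content of the start-site windows was taken over 300 bases, 250 before and 50 after the start, and set against all 32841 such windows in the table. Each of 9 listed motifs was searched on both strands. The GC box, GGGCGG, bound by Sp1-type factors, occurred in 2 copies before the second Cdkn1a start. Around the E2f1 start, in bases inside the annotated gene, there were 5 copies, 4 of them within the printed 250 bases. Ahead of the Serpine2 start there were 6, among which 2 overlap by 1 base. Before the first Cdkn1a start it was found in 0 copies. Of all windows, 35.7% held at least 1 GC box, and of those of protein-coding genes 46.2%. These shares count windows with any copy and give no background for the number of copies. The E2f1 and Serpine2 windows also had a GC content of 77.3% and 77.7%, against a median of 52.7% over all windows.

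The Serpine2 window held 1 form of the E2F site core, TTGGCGC, with its first base 235 bases before the start, and 2.45% of all windows held it. The other form, TTCGCGC, was in 0 of the 4 windows and in 1.59% of all. The E2f1 window precedes a start 466 bases inside the annotated span of the gene. The sequence before that span was therefore not searched, for this motif or any other. The canonical E-box CACGTG, the kind of site bound by Myc and by Clock with Bmal1, was in 0 of the 4 start-site windows. The same held for its variant, the E-prime box CACGTT. These motifs were in 7.15% and 4.69% of all windows. Per2, the clock repressor gene, had no window, so no motif was searched there. The CCAAT box, spelled as its name says, and the TATA box, TATAAA, were likewise in 0 of the 4, against 37.4% and 13.6% of all. The core of the cAMP response element, TGACGTC, and the AP-1 site, which is TGAGTCA, were also in 0 of the 4, against 3.21% and 5.20% of all.

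A further motif was chosen after the sequences were seen. It consists of 2 CATG cores with 6 bases between them, the spacing of paired half-sites in a p53 binding site. It occurred once, in capitals above, with its first base 48 bases before the first Cdkn1a start, and 0.713% of all windows held it. A match describes letters in these windows and does not show that a factor was bound, and a motif not found says only that those letters are not in them.

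The windows also differed in base composition. GC content was 54.7% at the first Cdkn1a start, 64.7% at the second, 77.3% at E2f1 and 77.7% at Serpine2, against a median of 52.7% over all windows. The ratio of observed to expected CpG, which is high in CpG islands, was 0.0892 at the first Cdkn1a start, with 2 CpG in 300 bases, and 0.786 at the second, with 23. It was 1.08 at E2f1, with 48 CpG, and 0.938 at Serpine2, with 41, against a median of 0.384. The first Cdkn1a window thus lay at the 11.8th percentile of all windows, and the other 3 at the 77.9th, 97.4th (E2f1) and 90.2nd (Serpine2). The E2f1 values describe bases inside the annotated gene, not before it. Which of the Cdkn1a starts the 3.7 kb regions cover cannot be told without an annotation of mm9.

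**Figure D5:**
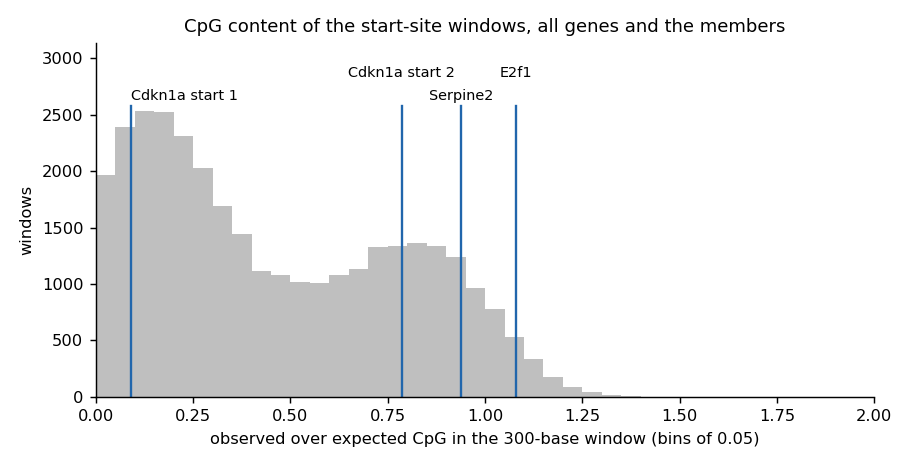
Observed over expected CpG in the 300-base windows around annotated starts, as a histogram of all 32841 windows (grey, bins of 0.05), with lines at the windows of Cdkn1a (2 starts), E2f1 (a start inside the gene) and Serpine2. The first Cdkn1a start lies in the CpG-poor peak at 0.0892, and the other 3 lie between 0.786 and 1.08.

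Gene names rest on the windows of the rule, since no annotation of mm9 was used here. The gene table of GRCm38.p6 lists the genes on the same chromosomes as the windows, Cdkn1a on 17, E2f1 on 2, and Per2 and Serpine2 on 1. In its order, the protein-coding neighbours are Srsf3 and Rab44 for Cdkn1a, with the noncoding gene Trp53cor1 next to it, Actl10 and Pxmp4 for E2f1, Hes6 and Traf3ip1 for Per2, and Mrpl44 and Fam124b for Serpine2. Whether a region belongs to the named gene or to a neighbour was not tested. Other cell cycle, p53 and clock genes were not analysed here, as their positions in mm9 were not used.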

How the data were processed

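The authors deposited 6 mouse lists of regions, lower or higher in shCbx8 than in shScr cells, as 3 columns of positions (chromosome, start, end). The names of these deposited lists state 1.8 for fold and 1e-08 for q-value. FastQC 0.10.0, Bowtie 1.0.0, MACS2 2.1.0, SICER and the build mm9 were used per the submitters' processing notes. The caller of changed regions, any scaling for depth and any use of input are not stated there. Since depth and strength are unknown, calls near the thresholds cannot be told from firm ones.

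Starts lay on a grid of 50 bp with ends 1 bp below it (0 regions off it), so ends were read as included, and positions are printed counted from 1. Overlap required at least 1 bp. Length percentiles are mid-ranks within a list, and gaps count the bases between regions. Motifs, GC content and observed over expected CpG were computed from the RefSeq start-site windows of GRCm38.p6 with letters A, C, G and T only. Python 3.11.15, numpy 2.4.6, scipy 1.17.1 and matplotlib 3.10.9 were used. In simulations the code found 50 of 50 overlaps planted at the 166 lower H3K27ac positions and 100 of 100 planted motifs. The other positions were moved to made-up chromosomes, where no overlap was possible. The planted motifs were CACGTT and TTCGCGC, in sequence of A and G only, so the other motifs were not checked in this way.

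The loci, and the lists behind them, were chosen with earlier results of these data known. The regions named are those at the 4 loci, the pairs just outside the overlap rule, the pair higher in both marks, the changed regions within 1000000 bp of a locus or, for Serpine2, the nearest one (chosen after their values were seen) and neighbour genes by name. No test was run, because each condition had 1 library and the rule used these same calls. The human lists were not used.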

Additional observations from a re-analysis of the deposited data

How the results depend on the processing

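Of 66 alternative values for 31 results, 54 stayed within 1.5 times the value reported (for length percentiles, within a 95% interval). Counting gaps of up to 5000 bp as shared gave 7 lower H3K27ac regions in place of 4. Requiring 50% of the shorter region, or of both, gave 3 and left out Serpine2. With windows widened by 50000 bp Per2 held 3 regions in place of 2, and with 100000 bp, chosen after seeing the data, 4. Taking the nearest neighbour from the H3K27ac list alone gave 836 kb for Cdkn1a, 1938 kb for E2f1 and 78.8 kb for Per2, by construction no nearer than that from all lists. Searching the gene strand only, which by construction finds fewer matches, gave 2.36% for CACGTT, 0.804% for TTCGCGC, 1.32% for TTGGCGC, 23.4% for GGGCGG, 21.1% for CCAAT, 8.32% for TATAAA and 2.74% for TGAGTCA. No paired analysis was possible because each condition had 1 library and no result came from a test. No replicate could be left out for the same reason.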
